A study of Mus musculus with 16 samples.

Results

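Isoforms of the cardiac contractile apparatus that the heart exchanges during growth and stress were followed across the left ventricles of 16 mice. The 8 genes, chosen by symbol from the 24982 entries of the count table, were the myosin heavy chain genes Myh6, Myh7 and Myh7b, the atrial myosin light chain genes Myl4 and Myl7, the sarcomeric actin genes Actc1 and Acta1, and the slow skeletal troponin I gene Tnni1. Total RNA was sequenced from 1 left ventricle per mouse. All mice were C57BL/6, lacked Tln2 by label, were injected with tamoxifen for 5 days and, after a gap of 2 weeks, were given angiotensin II (AngII, a hormone that raises blood pressure) from osmotic pumps for 8 weeks. The Tln2-null group held 8 mice and the knockout group held 8 Tln2-null mice in which Tln1 was also deleted in cardiac fibroblasts, each with 4 males and 4 females. The products of Tln1 and Tln2 are the talins, which tie integrins to the actin cytoskeleton, and the comparison asks how loss of fibroblast talin bears on a heart under pressure load. No wild-type mice and no mice without AngII were among the samples, so the levels below have no baseline without load. The sources used here name neither the Cre driver nor the ages of the mice.

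The adult mouse ventricle runs on Myh6, which encodes the fast alpha myosin heavy chain, while Myh7, which encodes the slow beta chain, dominates before birth and returns under pressure load or lack of thyroid hormone. Actc1 encodes the cardiac alpha-actin of the adult heart, and Acta1, the skeletal alpha-actin, rises in the fetal and the hypertrophied heart. Myl4 and Myl7 encode the essential and regulatory light chains of the atrium, and Tnni1 is the troponin I of the fetal heart, replaced after birth by Tnni3. A rise of Myh7 over Myh6 and of Acta1 over Actc1 is therefore the textbook isoform switch.

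Myh6 and Myh7 lay head to tail on the minus strand of chromosome 14 (GENCODE M21 on GRCm38, 54941921 to 54966927 and 54970684 to 54994626), separated by 3756 bases. Myh7b lay on the plus strand of chromosome 2 (155611212 to 155634307). Each of these heavy chain genes carried a microRNA gene in an intron, on its own strand and without overlap of an exon. The mature sequences, from RefSeq on GRCm38.p6, are given because they show how alike the seeds (bases 2 to 8, in capitals) are across the heavy chain genes. The hosts are Myh6 for miR-208a, Myh7 for miR-208b and Myh7b for miR-499.
mmu-miR-208a-3p: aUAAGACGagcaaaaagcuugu
mmu-miR-208b-3p: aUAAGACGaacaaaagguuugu
mmu-miR-499-5p: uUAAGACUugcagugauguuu
The miR-208b seed was identical to that of miR-208a in 7 of 7 bases and the miR-499 seed in 6 of 7. The libraries held 6 to 17 counts for the Mir208a gene, 1 count in 1 library for Mir208b and 0 to 2 counts for Mir499, so the microRNAs themselves were not measurable here.

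For all 8 genes RefSeq gave a window of 250 bases before a transcript start, and 2 such windows for Myh7 and for Tnni1. Each was searched on both strands for 3 motifs. These were the CArG box bound by serum response factor, the MCAT motif (CATTCC) bound by TEAD factors, and the TATA box (TATAAA). Of 32851 such windows in RefSeq, 1.47% held a CArG box, 12.6% an MCAT motif and 12.4% a TATA box. The windows of the exchanging pairs are printed 5′ to 3′ with the matches in capitals, since the actin pair shares a CArG box and the myosin pair an MCAT motif on its reverse strand (GGAATG). Bases that GENCODE M21 places in an exon of the gene are left out. The Myh6 and Actc1 windows lie inside the spans that GENCODE M21 gives these genes, which reach 54966927 and 114053548. The Acta1 window, from 123894776, does not adjoin the GENCODE M21 span of that gene, which reaches 123894751. For Myh6, Actc1 and Acta1, distances before the start refer to the RefSeq start only. The positions on GRCm38.p6, all on the minus strand, are chr14:54966642-54966857 for Myh6, chr14:54994627-54994876 for Myh7, chr2:114052888-114053125 for Actc1 and chr8:123894776-123895025 for Acta1.
Myh6: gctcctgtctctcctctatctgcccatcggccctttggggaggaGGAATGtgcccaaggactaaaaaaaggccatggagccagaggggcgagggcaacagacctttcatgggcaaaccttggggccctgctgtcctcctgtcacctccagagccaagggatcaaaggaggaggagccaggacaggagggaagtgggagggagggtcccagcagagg
Myh7: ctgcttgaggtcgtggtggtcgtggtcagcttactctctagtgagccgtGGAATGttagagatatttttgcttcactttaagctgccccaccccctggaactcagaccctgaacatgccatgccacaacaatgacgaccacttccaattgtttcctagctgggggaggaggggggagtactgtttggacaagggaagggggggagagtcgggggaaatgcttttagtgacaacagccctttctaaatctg
Actc1: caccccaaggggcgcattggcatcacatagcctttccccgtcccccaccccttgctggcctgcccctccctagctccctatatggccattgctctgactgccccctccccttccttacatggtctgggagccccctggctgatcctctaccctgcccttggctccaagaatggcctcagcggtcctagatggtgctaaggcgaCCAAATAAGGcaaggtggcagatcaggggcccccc
Acta1: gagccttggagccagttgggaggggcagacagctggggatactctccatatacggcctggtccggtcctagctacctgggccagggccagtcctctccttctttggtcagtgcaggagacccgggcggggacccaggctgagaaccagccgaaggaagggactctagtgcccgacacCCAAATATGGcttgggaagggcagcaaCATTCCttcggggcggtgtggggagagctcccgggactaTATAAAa
The MCAT match began 206 bases before the start of Myh6 and 201 bases before that of Myh7, and the second Myh7 window held no match. The CArG box began 47 bases before the start of Actc1 and 73 bases before that of Acta1, and Acta1 also held an MCAT match at 46 bases and a TATA match at 7 bases. Myl7 held a CArG box at 61 bases and an MCAT match at 70 bases. No window of Myh7b, Myl4 or Tnni1 held any of the 3 motifs, which says only that these letters are not in these windows.

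**Figure D1:**
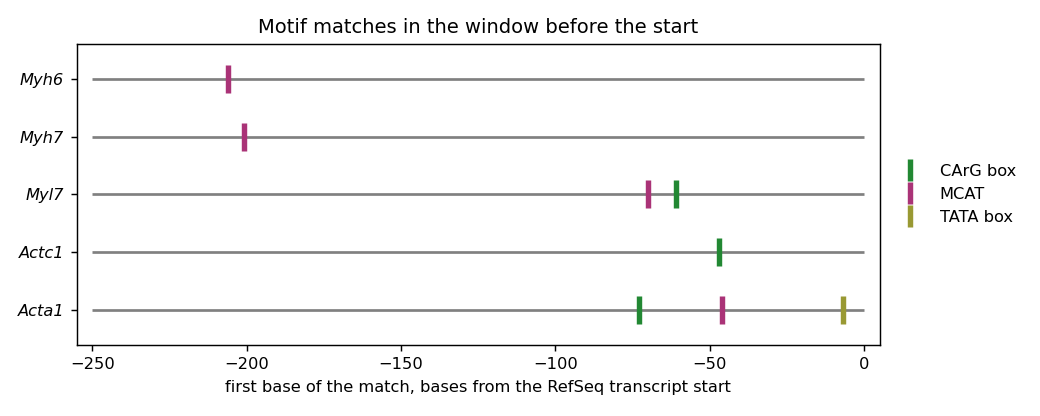
Motif matches in the 250 bases before the RefSeq transcript start of the 5 members with a match, on an axis of bases from the start. Acta1 holds all 3 motifs, Myl7 and Actc1 a CArG box within 61 bases of the start, and Myh6 and Myh7 an MCAT match 206 and 201 bases before it.

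Total counts ran from 11161766 to 19221673 per library, at which 3 counts correspond to 0.156 to 0.269 CPM (a gene's counts scaled to a common library total) by the total alone. Tln1, the gene deleted in fibroblasts, had 288.9 ± 20.6 CPM in the Tln2-null and 273.5 ± 31.3 CPM in the knockout ventricles (SD, n = 8 each), and Tln2 had 66.8 ± 7.25 and 67.0 ± 2.32 CPM. Counts per gene do not show which part of a gene is left, and the cells of a whole ventricle are mixed, so these levels do not check the labels. Defining markers of ventricular muscle were abundant (Myl2 from 2147 to 3033 CPM). Those of atrium were at or near 0, with Sln at 0 to 2 counts, Bmp10 at 0 in 15 of 16 libraries and Mybphl at 1 to 6 counts. Of those of fast skeletal muscle, Myh4 was at 0 in all 16 libraries. Mylpf (9 to 30 counts) and Tnnt3 (4 to 20 counts) were low but present in all 16. Libraries are named by group and replicate, and Tln2-null 8 and knockout 8 stood apart in the clock gene Arntl (28.4 and 27.1 CPM, against 3.66 to 8.43 in the others) and in Nppb (629 and 507 CPM, against 10.2 to 236). Tln2-null 5 stood apart in the stress-induced genes Hspa1a (85.9 CPM, against 2.88 to 8.90 in the others), Hspa1b (53.1 against 1.57 to 5.90) and Atf3 (89.6 against 2.67 to 25.1). Of the 8 females, 4 had Y-linked reads above 1% of the male mean, 3 of them knockout. Nothing in the labels says more of the mice of a group than that they are separate samples. In bulk tissue, fewer cells of a type and less RNA per cell cannot be told apart.

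Compared per kilobase of annotated exon, Actc1 (3614 ± 212 CPM per kb) and Myh6 (3285 ± 160) had the highest levels of the 8 members (SD, n = 16). Their ranges overlapped. Acta1 followed at 941 ± 360, Myh7 at 159 ± 66.7 and Myh7b at 19.4 ± 4.12, and Myl4 at 1.76 ± 0.595. Myl7 (0.273 ± 0.313) and Tnni1 (0.202 ± 0.0757) were lowest and overlapped each other. The ranges of Acta1 (226 to 1627) and Myh7 (21.5 to 267) overlapped through 1 library low in Acta1, those of Myh7 and Myh7b (12.4 to 29.7) through 1 library low in Myh7, and those of Myl4 (1.04 to 3.32) and Myl7 (0 to 1.36) through 1 library high in Myl7. The adult isoforms held the upper places, and Myl7 and Tnni1 lay near the level that 3 counts allow.

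Between genotypes, none of the 6 members that passed the filter on low counts (Myl7 and Tnni1 did not) was called by edgeR's quasi-likelihood test at an adjusted p under 0.05. Of all 13775 genes tested, 0% were called and 5.08% had an unadjusted p under 0.05 in that test, against 0 of the 6 members. DESeq2 called 0.123% of genes, no member among them. In none of the 8 members were the CPM of both groups free of overlap, as they were in 0.0436% of all genes. Members covered both directions: Myh6, Myh7b and Actc1 had fitted values above 0 in knockout ventricles, and Myh7, Acta1 and Myl4 below 0.

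Myh6 was the steadiest member. It ran from 19315 through a median of 19827 to 20194 CPM in the Tln2-null and from 18899 through 21162 to 22134 CPM in the knockout libraries. The knockout range enclosed the Tln2-null range, and 5 knockout libraries lay above the highest Tln2-null library. The difference was 0.07 ± 0.04 on the log2 scale (edgeR, adjusted p = 0.935). Across all 16 mice its coefficient of variation was 4.86%.

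Myh7 varied most among the heavy chains, with a coefficient of variation of 42.0%. The Tln2-null libraries ran from 137 through a median of 1269 to 1701 CPM and the knockout libraries from 554 through 838 to 1139 CPM. Of the Tln2-null libraries 5 lay above every knockout library, 2 lay within the knockout range and 1, Tln2-null 8, lay far below it at 137 CPM, while the next lowest Tln2-null library held 867 CPM. The fitted difference was -0.51 ± 0.32 (log2, edgeR, adjusted p = 0.935). Without Tln2-null 8 it was -0.69 ± 0.18, with an unadjusted p of 0.00101 and an adjusted p of 0.223 in edgeR. With or without that library Myh7 was not called.

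Myh7b encodes a slow myosin heavy chain that the heart expresses at a low level and hosts miR-499. It ran from 76.7 through 121.4 to 157.5 CPM in the Tln2-null and from 96.2 through 117.4 to 182.8 CPM in the knockout libraries, and the ranges overlapped widely. The difference was 0.09 ± 0.14 (log2, edgeR, adjusted p = 0.967). Its highest libraries were Tln2-null 8 and knockout 4, the libraries that were lowest in Myh7 and in Acta1.

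**Figure D2:**
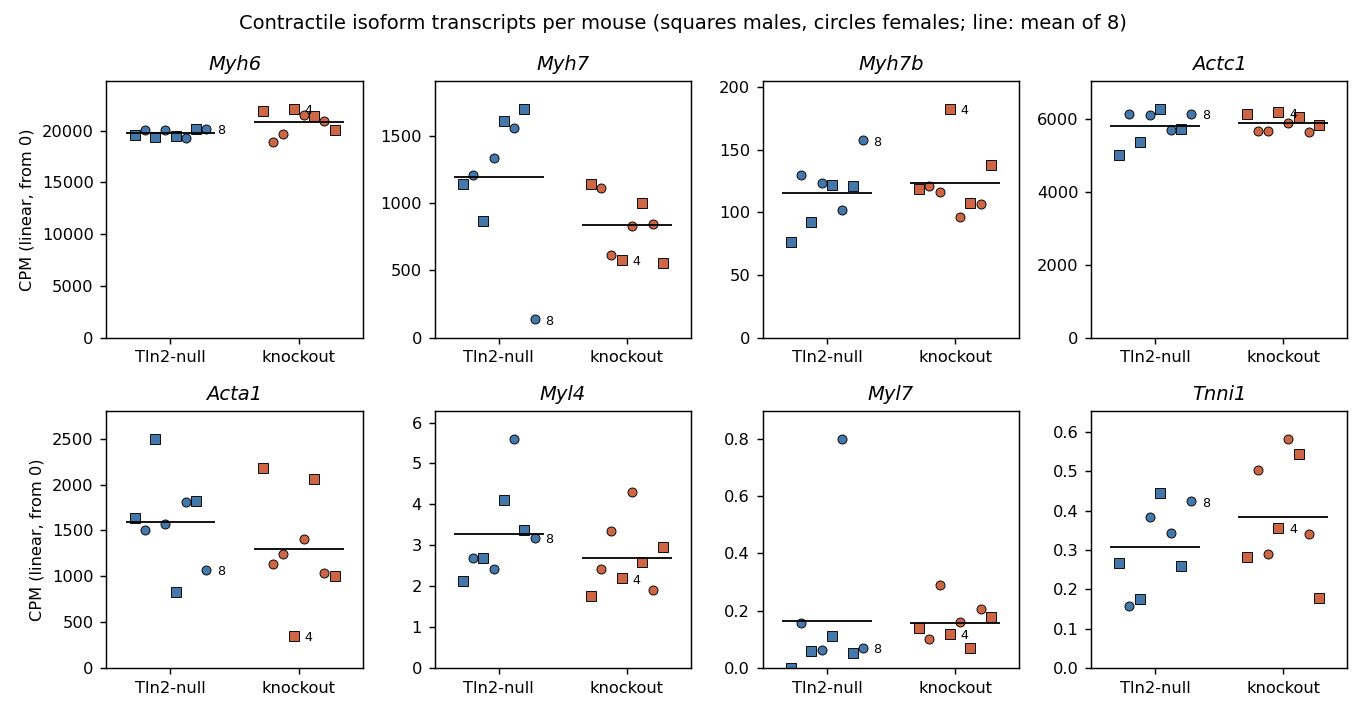
CPM of the 8 members in each of the 16 libraries, on linear axes from 0, with squares for males, circles for females and a line at the mean of each group of 8. The numbers mark replicate 8 of the Tln2-null group, at 137 CPM of Myh7, and replicate 4 of the knockout group, at 348 CPM of Acta1.

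The Myh7/Myh6 ratio needs no scaling between libraries. The Tln2-null ventricles held from 0.680 through a median of 6.32 to 8.42 Myh7 counts per 100 Myh6 counts, and the knockout ventricles from 2.61 through 3.95 to 5.87. Myh6 exceeded Myh7 in every library. Again 5 Tln2-null libraries lay above all knockout libraries and Tln2-null 8 lay below them all. The mean log2 ratio differed by -0.37, knockout minus Tln2-null (log2 SD 1.20 in Tln2-null, 0.43 in knockout), which an exact two-sided permutation of genotype within each sex did not separate (p = 0.487, adjusted over the 4 ratio tests 0.965). The difference tested is the average of the difference within males and that within females, with equal weight. Without Tln2-null 8 it was -0.79 (exact permutation p = 0.00449). With medians in place of means within each sex, it was -0.81 over all 16 libraries (p = 0.0216 by the same permutation). With means again, leaving out the 4 females with Y-linked reads gave a difference of 0.01. That set keeps Tln2-null 8 and leaves 1 knockout female, which weighs as much as all knockout males. The males, all kept, had mean log2 ratios of -4.78 in knockout and -3.94 in Tln2-null ventricles. Of the females left, knockout 2 stood at -4.09, against -4.06, -3.63 and, in Tln2-null 8, -7.20. The value of 0.01 therefore does not show that the genotypes were alike. Whether the unadjusted permutation p passed 0.05 therefore depended on the libraries kept and, over all 16, on the use of means or medians. The p values of these alternatives were not adjusted over the 4 ratio tests. The p of 0.00449 was the lowest of the 16 permutation runs that each left out 1 library.

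The sample titles carry a running number whose meaning the labels do not give, and 6.34% of all genes followed it in edgeR at an adjusted p under 0.05 (24.2% at an unadjusted p under 0.05), none of the 6 members among either. Up to number 8, the 4 Tln2-null libraries held 4.48 to 6.64 Myh7 counts per 100 Myh6 counts and the 3 knockout libraries 3.15 to 5.87. From number 9 on, the 4 Tln2-null libraries held 0.680 to 8.42 and the 5 knockout libraries 2.61 to 4.66. In the later set the 3 Tln2-null libraries other than replicate 8 all lay above 8, and none of the 5 knockout libraries passed 4.66. The groups overlapped in both sets.

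**Figure D3:**
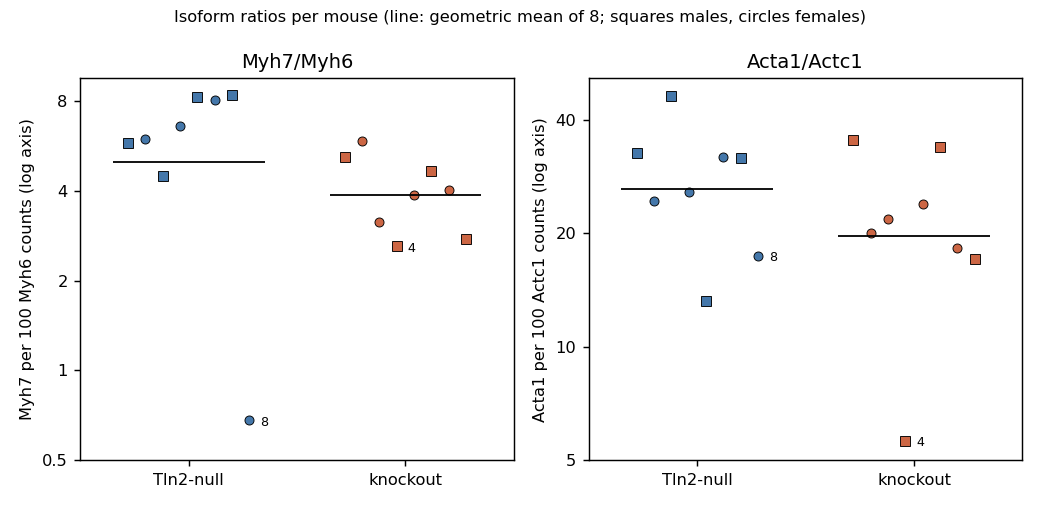
Counts of Myh7 per 100 Myh6 counts and of Acta1 per 100 Actc1 counts in each library, on log axes, with squares for males, circles for females and a line at the geometric mean of each group of 8. Tln2-null replicate 8 lies at 0.680 on the left, and knockout replicate 4 at 5.62 on the right, each apart from the rest of its group.

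Transcripts of Myh6 and Myh7 are alike enough for reads to be shared. Of the 50-base windows of the longest Myh7 transcript 22.2% stood letter for letter in a Myh6 transcript, and 11.2% of the 100-base windows did. The sources used here do not say how such reads were counted, so the ratio carries an unknown share of exchange between both genes. Acta1 and Actc1 transcripts shared 0% of such windows, as did every other pair compared. Mhrt, a long noncoding RNA made from the opposite strand of Myh7 and known as a regulator of the myosin switch, overlaps that gene by 3666 bases and has 463 of its 1214 exonic bases in Myh7 exons. Its level was 60.5 ± 6.80 CPM in the Tln2-null and 70.8 ± 12.9 CPM in the knockout ventricles (SD, n = 8 each), a log2 difference of 0.22 ± 0.10 (edgeR, adjusted p = 0.935). The library kit was directional, but no source used here gives the strand setting of the counting, so Mhrt and Myh7 reads may be mixed. In Tln2-null 8 Mhrt was at 60.6 CPM, within the Tln2-null range of 53.9 to 73.8 CPM, while Myh7 was at 137 CPM.

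Actc1, like Myh6, hardly varied. It ran from 5003 through 5911 to 6285 CPM in Tln2-null and from 5643 through 5866 to 6183 CPM in knockout libraries, so that the knockout values all lay within the Tln2-null range. The difference was 0.02 ± 0.05 (log2, edgeR, adjusted p = 0.976).

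Acta1 ran from 829 through 1606 to 2499 CPM in Tln2-null and from 348 through 1186 to 2176 CPM in knockout libraries. Of the knockout libraries 7 lay inside the Tln2-null range, and knockout 4 lay far below with 348 CPM, the next lowest knockout library holding 1001 CPM. The difference was -0.30 ± 0.27 (log2, edgeR, adjusted p = 0.946). The libraries highest in Acta1, Tln2-null 3 and knockout 1, were also the highest in the skeletal light chain gene Myl1. They held 55.7 and 46.4 CPM of it, against 6.77 to 38.4 CPM in the others. Below these the order of both genes differed. Tln2-null 8 held 38.4 CPM of Myl1 with 1071 CPM of Acta1, and knockout 6 held 21.9 and 2056 CPM. The 18 skeletal muscle markers, Myl1 among them, summed to 92.9 to 197 CPM in Tln2-null and 91.4 to 142 CPM in knockout libraries. Their part in the Acta1 level was not tested. Per 100 Actc1 counts, Acta1 ran from 13.2 through 28.8 to 46.5 in Tln2-null and from 5.62 through 20.9 to 35.4 in knockout ventricles, and the groups overlapped. The mean log2 ratio differed by -0.42 (exact permutation p = 0.295, adjusted over the 4 ratio tests 0.965). Without knockout 4 it differed by -0.13 (exact permutation p = 0.627). The library lowest in Acta1 was not the library lowest in Myh7: knockout 4 held 577 CPM of Myh7 and Tln2-null 8 held 1071 CPM of Acta1. Tln2-null 5, which stood apart in Hspa1a and Atf3, was the lowest Tln2-null library in Acta1 (829 CPM) and the highest of all in Actc1 (6285 CPM), and its Myh7/Myh6 ratio of 8.28 per 100 was the second highest. Without it the Acta1/Actc1 difference was -0.60 (exact permutation p = 0.128) and the Myh7/Myh6 difference -0.31 (exact permutation p = 0.578).

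**Figure D4:**
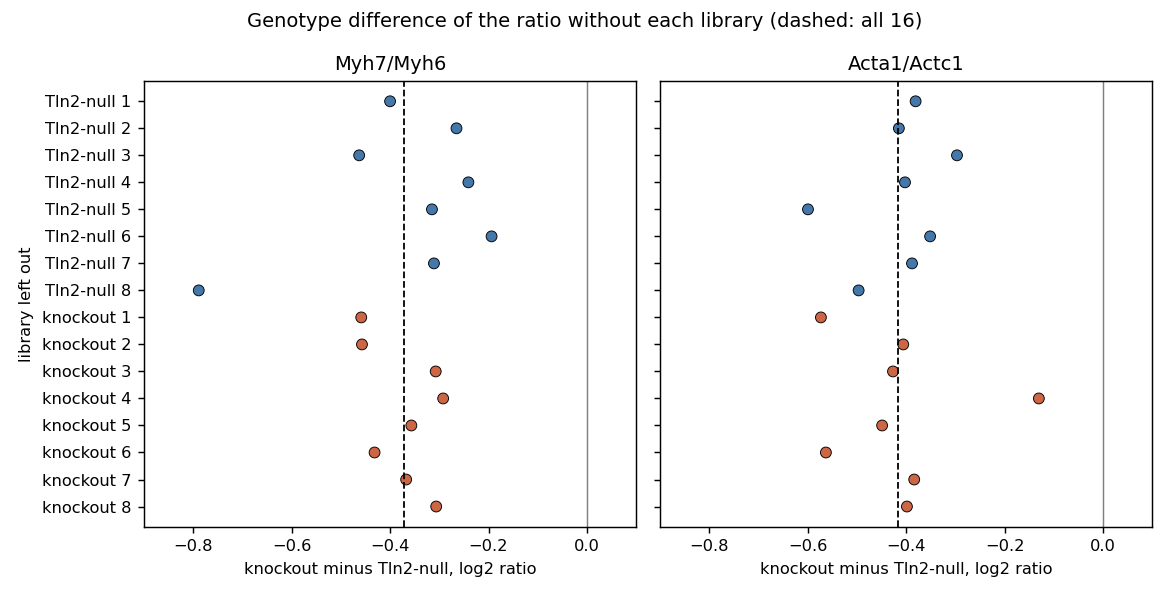
Difference in mean log2 ratio between genotypes (knockout minus Tln2-null), averaged over the sexes with equal weight. Each of the 16 libraries is left out in turn, with a dashed line for all 16. The Myh7/Myh6 difference lies between -0.79, without Tln2-null 8, and -0.19, and the Acta1/Actc1 difference between -0.60 and -0.13, without knockout 4.

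Of the atrial light chains, Myl4 was measurable and Myl7 was not. Myl4 ran from 2.13 through 2.93 to 5.60 CPM in Tln2-null and from 1.76 through 2.50 to 4.29 CPM in knockout libraries, on 25 to 98 counts. The ranges overlapped and the difference was -0.29 ± 0.21 (log2, edgeR, adjusted p = 0.939). Myl7 had 0 to 14 counts per library, and only Tln2-null 6 (14 counts, 0.800 CPM) and knockout 3 (5 counts, 0.288 CPM) held more than 3. Tln2-null 6 was also the highest library in Myl4, at 5.60 CPM, and in the natriuretic peptide gene Nppa, at 1898 CPM against 289 to 1388 in the others. Its defining atrial markers were at or near 0 as in the other libraries (Sln at most 2 counts, Mybphl at most 6). The 11 atrial markers summed to 647 to 2115 CPM in Tln2-null and 506 to 1455 CPM in knockout libraries, most of it Nppa, and their part in the light chain levels was not tested.

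Tnni1 had 2 to 11 counts per library, from 0.158 to 0.444 CPM in Tln2-null and from 0.178 to 0.583 CPM in knockout libraries. An exact permutation of genotype within sex gave p = 0.240 for Tnni1 and p = 0.994 for Myl7. With so few counts, these p values do not show that the levels were alike. The adult isoform Tnni3 stood at 2028 to 2690 CPM.

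Between the sexes no member was called by edgeR (adjusted p of 0.9998 for each of the 6), where 0.0871% of all genes were, and none had an unadjusted p under 0.05, where 3.69% of all genes did. Female minus male differences ran from -0.20 ± 0.27 for Acta1 to 0.26 ± 0.21 for Myl4 (log2). The ratios differed by -0.29 for Myh7/Myh6 (exact permutation p = 0.733) and by -0.02 for Acta1/Actc1 (exact permutation p = 0.965). Myl7 stood at 0.231 CPM in females and 0.0909 CPM in males (exact permutation p = 0.0482). Without Tln2-null 6 it stood at 0.149 and 0.0909 CPM (exact permutation p = 0.0918). In edgeR without the filter on low counts, Myl7 differed by 1.37 ± 0.58 over all 16 libraries (unadjusted p = 0.0270, adjusted p = 0.938). These Myl7 levels rest on 0 to 14 counts per library. Males varied more than females in Acta1 per 100 Actc1 counts, from 5.62 to 46.5 against 17.4 to 31.9, a difference in spread that was not tested.

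Within males, edgeR called no gene between genotypes (0%), while 6.07% had an unadjusted p under 0.05. Of the 6 members, Myh6 (0.12 ± 0.06, unadjusted p = 0.0426) and Myh7b (0.41 ± 0.17, unadjusted p = 0.0295) were among the latter, both at an adjusted p of 0.775 in edgeR. Myh7b ran from 76.7 to 121.7 CPM in Tln2-null males and from 107.1 to 182.8 CPM in knockout males. Within females, with 0% of genes called and 3.31% at an unadjusted p under 0.05, no member reached that level, and Myh7b differed by -0.22 ± 0.17. The genotype difference in Myh7b, female minus male, was -0.63 ± 0.24 (edgeR interaction, unadjusted p = 0.0193, adjusted p = 0.980), where 4.27% of all genes reached an unadjusted p under 0.05 and 0% were called. Leaving out each library in turn kept this value between -0.73 and -0.45.

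Across the 16 mice, 28 pairs of members and the pair of ratios were compared by correlation of log2 values. Myh7b was higher where Actc1 was higher (Pearson r = 0.733, permutation p = 0.00137, adjusted 0.0397; Spearman rho = 0.729, permutation p = 0.00174, adjusted 0.0505). Without the 2 libraries farthest from the median of Myh7b (Tln2-null 1 and knockout 4) r was 0.553. It was 0.899 within Tln2-null and 0.419 within knockout mice, 0.606 after removal of the mean of each genotype and sex, and 0.923 and 0.547 among title numbers up to 8 and from 9. Myh7b and Acta1 ran in opposite order (r = -0.683, permutation p = 0.00466, adjusted 0.0676; rho = -0.565, adjusted 0.352), with r at -0.510 without the same 2 libraries. Within title numbers up to 8 that r was -0.376 and from 9 it was -0.765. For the genes that rise in the switch no relation passed the test: Myh7 and Acta1 gave r = 0.353 (permutation p = 0.151, adjusted 0.560) and the Myh7/Myh6 and Acta1/Actc1 ratios r = 0.370 (permutation p = 0.142, adjusted 0.560). All values share a library and its scaling between both genes of a pair.

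**Figure D5:**
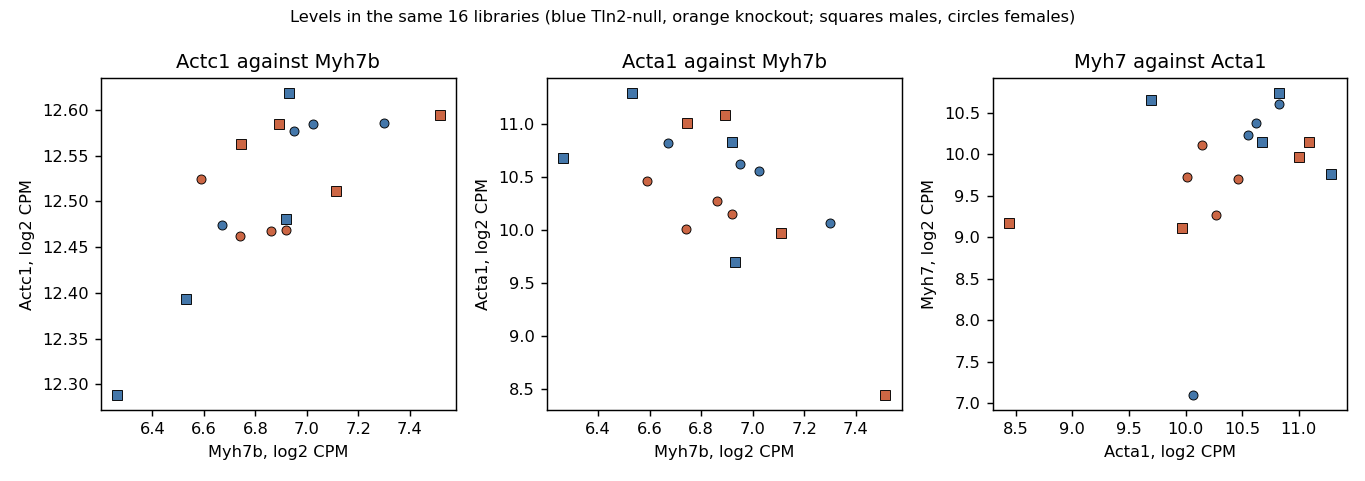
Levels of member pairs in the same 16 libraries on log2 CPM axes, Tln2-null in blue, knockout in orange, squares for males and circles for females. Actc1 is higher where Myh7b is higher (r = 0.733), Acta1 is lower where Myh7b is higher (r = -0.683), and Myh7 against Acta1 shows r = 0.353 with 1 library far below in each gene.

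The genes whose levels ran most like each member across the 16 libraries were taken among 9325 genes of at least 10 CPM, as a description. For Myh7 they were Mzt2 (r = 0.868), Angptl7 (0.838) and Zmynd11 (0.835), and without Tln2-null 8 and knockout 8 these values were 0.609, 0.782 and 0.538. Angptl7, which encodes a secreted angiopoietin-like protein, averaged 23.7 CPM in the Tln2-null and 8.99 CPM in the knockout libraries. Closest to Acta1 were Sema5a (r = 0.839), Nlrc3 (0.797) and Zfc3h1 (0.746), and without knockout 4 and Tln2-null 5 these values were 0.625, 0.615 and 0.430. Closest to Myh6 were Gpat3 (r = 0.844), Wdr41 (0.836) and Opa3 (0.781). Myh7b ran with Miga2 (r = 0.892), Mmp15 (0.888) and Chtf8 (0.883). Closest to Actc1 were Alas1 (r = 0.873), the first enzyme of haem synthesis, Fhl2 (0.870) and Tob1 (0.855). Without Tln2-null 1 and Tln2-null 3 these values were 0.663, 0.614 and 0.740. Myl4 ran with Nab2 (r = 0.872), Cenpa (0.794) and Bcl2 (0.787). The nearest genes to Tnni1 were Cers5 (r = 0.868), Supt7l (0.828) and Spats2l (0.796), on at most 11 counts of Tnni1, and those to Myl7, led by Colec12 at 0.713, fell to 0.239 without Tln2-null 6 and Tln2-null 1.

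Other genes of the contractile families, non-muscle and smooth muscle forms among them, were not called between genotypes either. Of the other myosin heavy chain genes 4 of 10 were measured, non-muscle Myh9, Myh10 and Myh14 and smooth muscle Myh11. All 4 had values below 0, with a median of -0.11 (log2) and 0 called. The median over all 13775 genes was -0.0027. Of the other light chain genes 9 of 9 were measured, 2 above and 7 below 0 with a median of -0.06. Myl9, the smooth muscle regulatory light chain, differed by -0.37 ± 0.13 (unadjusted p = 0.0105) and Myl6 by -0.16 ± 0.07 (unadjusted p = 0.0465), both at adjusted p of 0.799 or more in edgeR. Ventricular Myl2 differed by 0.07 ± 0.07. Of the other actins, which include non-muscle Actb and Actg1, 1 was above and 3 were below 0, Acta2, the smooth muscle actin, by -0.20 ± 0.22. Of 8 smooth muscle and pericyte markers, which include Acta2, Actg2 and Myh11, 7 had values below 0 and 1 above, with a median of -0.26 and 0 called. Among them Cnn1 differed by -0.64 ± 0.20 (unadjusted p = 0.00564, adjusted p = 0.755 in edgeR) and Tagln by -0.40 ± 0.14 (unadjusted p = 0.0119, adjusted p = 0.808 in edgeR). Rgs5, the 1 above 0, differed by 0.13 ± 0.06 (unadjusted p = 0.0442, adjusted p = 0.935 in edgeR). The summed level of the 8 ran from 1315 to 1963 CPM in Tln2-null and from 1362 to 1698 CPM in knockout libraries, and its part in the values of Myl9, Acta2 and Myh11 was not tested. Of the troponins and tropomyosins 10 of 11 were measured, 6 above and 4 below 0 with a median of 0.02.

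Of 33 regulators of the switch 32 were measured, 13 above and 19 below 0, with 0 called and a median of -0.05. Nfatc4, a calcineurin-dependent transcription factor, differed by -0.43 ± 0.17 (unadjusted p = 0.0216, adjusted p = 0.916 in edgeR), and Mhrt as given above. All 9 other load markers had values below 0 in knockout ventricles, with a median of -0.21 and 0 called. Among them the filamin gene Flnc differed by -0.27 ± 0.09 (unadjusted p = 0.00825, adjusted p = 0.755 in edgeR) and Nppa by -0.45 ± 0.26 (adjusted p = 0.935 in edgeR). Nppb differed by -0.18 ± 0.57, and its highest library, Tln2-null 8, was the lowest in Myh7. Of 12 ventricular muscle markers 10 had values above 0 and 0 were called. The 3 at an unadjusted p under 0.05 in edgeR were all higher in knockout ventricles, the calcium handling genes Atp2a2 (0.12 ± 0.05), Ryr2 (0.15 ± 0.06) and Pln (0.16 ± 0.07). The summed level of the 12 ran from 42846 to 46907 CPM in Tln2-null and from 40810 to 50254 CPM in knockout libraries. All 9 fibroblast markers had values below 0, 6 of them at an unadjusted p under 0.05 in edgeR and 0 called. Over all 13775 genes, 7052 were below 0 and 5.08% had an unadjusted p under 0.05. The fibroblast sum ran from 1458 to 2798 CPM and from 1247 to 2384 CPM. The part of these cell type markers in the isoform values was not tested.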

How the data were processed

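Per the labels' protocols, left ventricles were homogenized in TRIzol, RNA was purified on columns and the kit for the libraries was directional. DRAGEN, DESeq2 and mm10 are named in the submitters' processing notes, with no version or role. The sources used here do not give the annotation used for counting. Whole-number counts by gene symbol were deposited by the authors. The deposited normalized table holds a signal that equals counts divided by 1 size factor per library: 100% of values came out whole within 0.001, and 16384 of 16384 genes compared matched the counts, so only counts were tested.

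Groups and sexes came from the labels, and replicate numbers 1 to 8 were assigned here in record order. No 2 libraries were duplicates (120 pairs). In R 4.3.3, edgeR 4.0.16 (TMM, filterByExpr by genotype and sex, quasi-likelihood test, Benjamini-Hochberg adjustment, called under 0.05) was fitted to 13775 genes with genotype and sex as terms, or with 1 mean per genotype and sex. CPM are TMM-scaled and given as mean ± SD, and log2 differences carry an SE from the fit. The p values for differences set each difference against the spread between these samples. On data simulated from these libraries, with 13694 genes in the genotype fit, 90.9% of 2-fold and 100% of 4-fold changes were recovered with 8 false calls. The changed genes were drawn at random. The median SE over all genes was 0.09, against 0.32 for Myh7 and 0.27 for Acta1, so these shares do not give the recovery for these members. Ratios are log2 of counts plus 0.5, tested by exact permutation within sex or genotype (4900 assignments). Their differences are averages over the sexes, or over the genotypes, with equal weight. Correlations used 100000 permutations of all 16 libraries across genotype and sex, with adjustment over 29 relations. Members absent from the main fit (Myl7, Tnni1) were tested by permutation, and in edgeR only in the alternative without the filter on low counts.

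The members and lists were chosen with earlier results of these data known. Named genes were chosen from Tln1, Tln2, the members, the 3 genes most like each member or ratio, and for each list up to 4 genes of lowest p in the genotype comparison and its defining markers. Not all of these are given above. Left out were, among others, fibroblast Tcf21 and Dpt, atrial Dkk3 and conduction system Shox2, all lower in knockout ventricles at adjusted p of 0.158 or more in edgeR. Atrial Kcnj3 (0.23 ± 0.11, unadjusted p = 0.0449, adjusted p = 0.935 in edgeR) and conduction system Cntn2 (0.48 ± 0.39, adjusted p = 0.942 in edgeR) were higher. Of the atrial markers measured, 2 were above and 6 below 0, and of the conduction system markers 2 and 5. Arntl, Nppb, Hspa1a, Hspa1b and Atf3 were named after their values were seen. Alternatives were DESeq2 1.42.0, limma-voom (limma 3.58.1), other scaling, filters and covariates, and left-out libraries.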

Additional observations from a re-analysis of the deposited data

Results flagged for a closer look

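In 5 cases a value lay so far from the rest of its group of 8 that the gap to the nearest library took up more of the group's range than Dixon's 95% limit allows. Of 20 groups checked, chance alone would give about 1 if the checks were independent, which they are not: each of the 2 ratios repeats the low Myh7 or Acta1 of the same library, so that the 5 cases come from 3 libraries. Myh7 in Tln2-null 8 was the lowest of its group, with a gap of 0.732 of the range of log2 CPM, and its Myh7/Myh6 ratio likewise, with a gap of 0.749. Myh6 in the same library, at 20185 CPM, lay among the others. Acta1 in knockout 4 was the lowest of the knockout libraries (gap 0.576), and so was its Acta1/Actc1 ratio (gap 0.605), with Actc1 at 6183 CPM the highest of its group. Myl7 in Tln2-null 6 was the highest of its group (gap 0.587), on 14 counts against 0 to 3 in the other Tln2-null libraries.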

How the results depend on the processing

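No member was called in any of 456 member results under alternative settings, the smallest adjusted p being 0.223 (edgeR, Myh7 between genotypes without Tln2-null 8), and 27 of these results changed sign. Genes called between genotypes numbered 0, and 1 without the filter on low counts, 11 with limma-voom, 17 with DESeq2 and 5 without the 2 libraries that stood apart in clock genes, and 0 to 7 when each library was left out (7 without knockout 8, 3 without Tln2-null 1 and 1 without Tln2-null 4). Between sexes 12 were called, 21 with DESeq2 and 10 to 14 with each library left out.

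The Myh7/Myh6 difference between genotypes (-0.37) was -0.81 with medians in place of means within each sex and -0.72 without the 2 clock-gene libraries. It was 0.014 without the females with Y-linked reads, where 1 knockout female weighs as much as all knockout males. With each library left out it was -0.79 to -0.19. Between sexes it was 0.00078 with medians in place of means within each genotype and -0.47 to 0.12 with each library left out. The Acta1/Actc1 difference with each library left out was -0.60 to -0.13 between genotypes and -0.30 to 0.14 between sexes. Signs changed with limma-voom for Myh7b (-0.023) and Actc1 (-0.0053) between sexes and for Acta1 in the interaction (0.10), without the genotype covariate for Myh7b between sexes (-0.0081), and for Myl4 in the interaction (-0.28) when the females with Y-linked reads were left out. With each library left out, sign changes fell in these ranges: between genotypes Myh7b -0.0052 to 0.17 and Actc1 -0.0088 to 0.042; between sexes Myh7 -0.23 to 0.050, Myh7b -0.081 to 0.10 and Actc1 -0.021 to 0.030; in the interaction Myl4 -0.053 to 0.51 and Acta1 -0.34 to 0.27. Except for the left-out libraries the cause was not tested.

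The alternatives without the clock-gene libraries and without the libraries lowest in Myh7 and Acta1 were chosen after seeing the data. No paired analysis was possible because the replicate numbers were assigned here. Depth limits Myl7 and Tnni1, which had at most 14 and 11 counts.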
